A study of Mus musculus with 21 samples.

Results

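The genes described are the serpins of the mouse embryonic pancreas: every gene whose symbol begins with Serpin and that has a probe set of its own on the arrays. There were 47 such genes among 19296 genes measured, each with 1 probe set. Of these, 13 lie on chromosome 12, 13 on chromosome 13 and 12 on chromosome 1. Another 5 probe sets are annotated jointly to several serpins, 2 of them to 5 Serpina1 genes and 3 to 4 Serpinb9 genes, and are not counted as members.

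Pancreata of mouse embryos of a mixed C57-Bl6/SV129/CD1 background were sorted by the fluorescence of a Foxa2-Venus fusion (FVF), which reports the endodermal transcription factor Foxa2. FVF+ cells were measured with 3 arrays on E12.5, 2 on E13.5, 3 on E14.5 and 3 on E15.5, where E counts days of embryonic life, and FVF- cells with 2, 2, 3 and 3 arrays on the same days. Both sorts came from the same organ, and the labels give no treatment and no genotype other than the fusion. The labels call the arrays of a group biological replicates without saying whether each was a separate embryo, litter or sort. The p-values therefore measure the spread between these samples, which may be technical. The sources do not say how many embryos were pooled. Values are log2 expression as deposited, and a difference of 1 is a 2-fold difference. Differences were tested in limma, and a call means a Benjamini-Hochberg adjusted p under 0.05 over the 19296 genes. Errors of differences are standard errors (SE) and errors of group means are standard deviations (SD).

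Serpins are a family of proteins named for the inhibition of serine proteases. An inhibitory serpin offers its reactive loop as bait, is cleaved by the protease and traps it in a covalent complex, so that each molecule is used up once. Several members inhibit nothing: some carry hormones in plasma, and Serpinh1 helps collagen to fold in the endoplasmic reticulum. In the pancreas, acinar cells make the digestive serine proteases, and many plasma serpins are known chiefly as products of the liver, which like the pancreas arises from foregut endoderm.

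Promoter sequence is shown for Serpina1c, Serpina1d and Serpini2, because these members of the results below carry in their upstream 250 bases the letters GTTAAT, or ATTAAC on the other strand, the core of the site of the endodermal HNF1 factors. The capitals mark that match. The sequences are the 150 bases before the annotated start in RefSeq (GRCm38.p6), on the minus strand, at chr12:103904951-103905100, chr12:103773634-103773783 and chr3:75270079-75270228.
Serpina1c: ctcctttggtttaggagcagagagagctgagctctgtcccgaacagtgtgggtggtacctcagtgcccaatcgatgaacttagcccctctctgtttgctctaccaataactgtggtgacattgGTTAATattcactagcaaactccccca
Serpina1d: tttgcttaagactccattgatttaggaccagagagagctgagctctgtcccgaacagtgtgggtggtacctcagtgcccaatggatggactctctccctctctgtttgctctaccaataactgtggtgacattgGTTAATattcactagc
Serpini2: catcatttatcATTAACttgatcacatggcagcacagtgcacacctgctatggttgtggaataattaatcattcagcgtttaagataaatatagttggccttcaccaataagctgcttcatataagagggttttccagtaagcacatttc
The match begins 27 bases before the start in Serpina1c, 16 in Serpina1d and 139 in Serpini2. The Serpina1c and Serpina1d windows share an identical run of 55 bases that holds the match. Of the 40 members with a promoter in the RefSeq table, 6 carried GTTAAT on either strand, the others being Serpina7, Serpinb3d and Serpinb8. Of all 32851 promoter windows of this length, 6.43% carried it. Serpina6, Serpina10, Serpinb1a, Serping1, Serpina9, Serpinb13 and Serpina4-ps1 had no promoter in that table and were not searched for any motif. A forkhead core, TGTTTAC or GTAAACA, was in 0 of the 40 members and in 3.17% of all windows. For each motif, members were counted as genes with a match in any window, and the shares are of single windows. The E-box CACCTG or CAGGTG was in 12 of the 40, among them Serpina1c, Serpini1 and Serpini2, and in 17.2% of all windows. None of the 3 motifs contains another, and a match is a description of sequence alone.

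The labels were checked against marker lists before the serpins were read. In the mean of the 4 daily differences, FVF+ cells were higher in 8 of 8 epithelial, 10 of 10 acinar and 10 of 10 endocrine genes. They were lower in 10 of 10 mesenchymal, 4 of 5 mesothelial, 8 of 8 endothelial, 5 of 5 red blood cell, 8 of 8 macrophage, 4 of 4 platelet, 4 of 6 mast cell and 3 of 4 neural genes measured, and 1 mast cell gene was higher. Of 12 hepatocyte genes, 9 were higher in FVF+ and 0 lower in that mean. At E14.5 and at E15.5, 5 were higher and 1 lower, namely Trf (-0.79 ± 0.16 and -1.15 ± 0.16). Foxa2 itself was at 10.87 to 11.51 in FVF+ arrays, against 7.98 to 8.89 in FVF- arrays. In some arrays marker means stood apart from the other arrays of the group. In FVF+ E12.5 replicate 1 the mean of the mesenchymal list was 9.79, against 8.73 and 8.54 in the other two, and that of the red blood cell list was 8.86, against 7.73 and 7.47. In FVF- E14.5 replicate 3 the epithelial mean was 9.94, against 9.29 and 8.40, and the acinar mean 10.28, against 9.38 and 8.86. The endothelial mean was 9.25 in FVF+ E13.5 replicate 2, against 7.90 in replicate 1. In FVF+ E14.5 replicate 2 it was 9.215, against 8.28 and 8.48. The endocrine mean was 9.10 in FVF- E15.5 replicate 2, against 8.06 and 8.40. Of these arrays, only FVF+ E12.5 replicate 1 and FVF- E14.5 replicate 3 were also left out together. The code numbers of the arrays rise with the embryonic day, except for 3 letter-coded arrays of E13.5, and the sources do not say what the codes mean. If they follow the order of processing, a change with day cannot be told apart from that order.

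Serpins differed between the sorts in both directions, and a few did so by a wide margin. In the mean of the 4 days, 13 of the 47 members were higher in FVF+ and 7 lower, together 42.6% of the members, against 55.7% of all genes called, of which 30.5% were higher and 25.2% lower. With a difference of at least 2-fold as well, 7 members were higher and 3 lower, against 5.14% and 6.7% of all genes. The members higher by at least 2-fold were Serpina1c, Serpina6, Serpini2, Serpinf2, Serpina10, Serpina1d and Serpini1, and those lower were Serping1, Serpinh1 and Serpinb9. The median difference over the 47 members was 0.02, against 0.03 over all genes. These are bulk samples, so fewer cells of a type and less RNA per cell cannot be told apart in any of these differences.

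**Figure D1:**
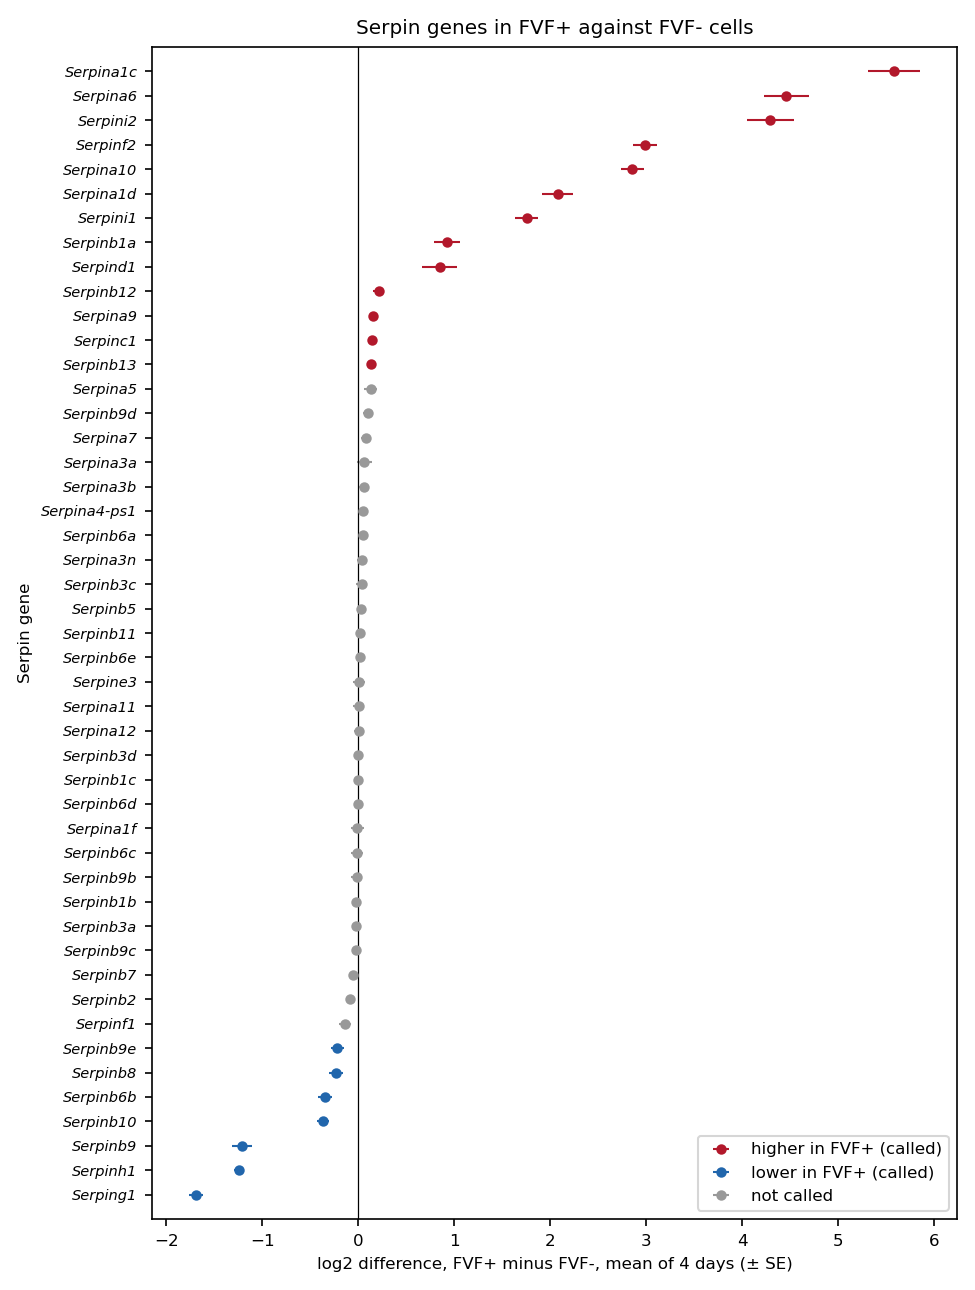
Difference between the sorts, FVF+ minus FVF- on the log2 scale, as the mean of the 4 daily differences, for all 47 serpins, with bars of 1 SE and colours for called and not called. Serpina1c stands at 5.59 at the top and Serping1 at -1.69 at the bottom, and 10 of the 20 called members lie within 1 log2 unit of 0.

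Serpina1c and Serpina1d encode alpha-1 antitrypsin, the plasma inhibitor of neutrophil elastase, and were high in FVF+ cells early and lower there at E15.5. The mouse genes of this group are near-identical copies, so a probe set named for one may also report the others, and the split between them is uncertain. Serpina1c was at 13.28, 12.53 and 12.76 in the FVF+ arrays of E12.5, 13.42 and 12.64 at E13.5, 12.72, 11.69 and 12.21 at E14.5, and 9.49, 10.69 and 9.85 at E15.5. In FVF- arrays it was at 5.57 and 5.65 at E12.5, 6.22 and 7.49 at E13.5, 8.35, 5.95 and 7.95 at E14.5, and 5.41, 5.90 and 6.31 at E15.5. All FVF+ arrays lay above all FVF- arrays, with the FVF+ arrays of E15.5 nearest to them. The mean sort difference was 5.59 ± 0.27 (SE, 48.1-fold, adjusted p = 2.007e-12 in limma), and the daily differences were 7.25, 6.18, 4.79 and 4.14 from E12.5 to E15.5, each of them called. Within FVF+ cells Serpina1c averaged 10.01 ± 0.62 at E15.5 (SD, n = 3) and 12.86 ± 0.38 at E12.5 (SD, n = 3), a difference of -2.85 ± 0.50 (SE, adjusted p = 0.0002365 in limma). The FVF- cells differed by 0.26 ± 0.56 over the same days (adjusted p = 0.8061 in limma). The change in FVF+ minus that in FVF- was -3.11 ± 0.75 (adjusted p = 0.007919 in limma).

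Serpina1d followed the same course at lower values. It was at 9.66, 8.46 and 8.96 in FVF+ arrays of E12.5, 9.82 and 8.84 at E13.5, 8.59, 7.65 and 8.15 at E14.5, and 6.51, 7.02 and 6.71 at E15.5. In FVF- arrays it was at 6.45 and 6.19 at E12.5, 5.82 and 6.37 at E13.5, 6.33, 6.06 and 6.40 at E14.5, and 6.09, 6.42 and 6.23 at E15.5. By E15.5 the sorts lay so close that the difference of 0.50 ± 0.29 was not called (adjusted p = 0.1739 in limma), while the mean over the days was 2.08 ± 0.16 (adjusted p = 1.18e-09 in limma). Serpina1d fell by 2.28 on the log2 scale in FVF+ cells between E15.5 and E12.5 (SE 0.29, adjusted p = 1.146e-05 in limma), and this change differed from that in FVF- cells by -2.21 ± 0.43 (adjusted p = 0.001989 in limma).

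The probe sets annotated jointly to the Serpina1 genes had the same shape. The first averaged 11.14, 11.17, 10.19 and 8.05 in FVF+ cells from E12.5 to E15.5, against 6.08, 6.16, 6.34 and 6.01 in FVF- cells. The second averaged 13.87, 13.89, 13.01 and 11.15 in FVF+ cells, against 8.84, 9.11, 9.15 and 8.46 in FVF- cells. Both were therefore highest in FVF+ cells at E12.5 and E13.5 and lowest there at E15.5. Among the 12 hepatocyte genes, 4 fell and 3 rose in FVF+ cells between E15.5 and E12.5, where 19.3% of all genes fell and 27.6% rose. Those that fell were Fgg and Fgb, which encode fibrinogen chains, by -2.29 and -1.07, Trf, which encodes transferrin, by -1.39, and Afp, which encodes alpha-fetoprotein, by -0.68. Those that rose were Ahsg, Fga and Apoh, by 0.58, 0.26 and 0.22, and the others, among them Alb (-0.13) and Ttr (-0.22), were not called. The mean level of the hepatocyte list was 8.64 to 9.02 in FVF+ arrays at E15.5, against 9.04 to 9.39 at E12.5, and the part of liver-type cells in the Serpina1 values was not tested.

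Serpina6 encodes corticosteroid-binding globulin, a serpin that carries glucocorticoids in plasma and inhibits no protease. It stayed near the top of the array's range in FVF+ cells and climbed in FVF- cells. In FVF+ arrays it was at 13.88, 14.02 and 14.17 at E12.5, 13.88 and 13.80 at E13.5, 14.21, 14.54 and 14.17 at E14.5, and 14.34, 14.41 and 14.27 at E15.5. In FVF- arrays it was at 8.19 and 6.73 at E12.5, 8.67 and 7.83 at E13.5, 10.77, 10.28 and 11.86 at E14.5, and 10.89, 12.28 and 12.77 at E15.5. The sorts did not overlap on any day, but the distance between them shrank from day to day. The differences were 6.56 ± 0.48, 5.59 ± 0.53, 3.34 ± 0.43 and 2.36 ± 0.43 from E12.5 to E15.5, and their mean was 4.46 ± 0.23 (adjusted p = 6.222e-12 in limma). In FVF- cells Serpina6 rose by 4.52 ± 0.48 between E15.5 and E12.5 (22.9-fold, adjusted p = 5.401e-06 in limma). In FVF+ cells the difference was 0.32 ± 0.43 and was not called (adjusted p = 0.5634 in limma), and the changes differed by -4.20 ± 0.64 (adjusted p = 0.0002665 in limma). The highest deposited value of any gene was 15.31, and whether values as high as those of Serpina6 in FVF+ cells are still proportional to RNA was not tested.

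Acinar genes moved the same way in FVF- cells. The mean of the acinar list was 10.13, 10.45 and 11.05 in FVF- arrays of E15.5, against 8.06 and 7.98 at E12.5, and 8 of its 10 genes rose and 0 fell. The epithelial list was at 8.80, 9.37 and 9.15 in FVF- arrays of E15.5, against 8.30 and 8.30 at E12.5, and 3 of its 8 genes rose. The FVF- array of E14.5 with the highest Serpina6 value, replicate 3, was the one with the highest epithelial and acinar means of that day. Without it, the difference at E14.5 was 3.78 ± 0.43 for Serpina6 and 5.94 ± 0.37 for Serpini2, against 3.34 and 5.27 with it. The part of acinar or epithelial RNA in the FVF- values of Serpina6, and of Serpini2 described next, was not tested.

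Serpini2, called pancpin for its expression in pancreas, rose with time in both sorts. In FVF+ arrays it was at 8.75, 9.98 and 10.20 at E12.5, 10.74 and 10.47 at E13.5, 12.53, 11.74 and 12.55 at E14.5, and 12.08, 12.04 and 12.21 at E15.5. In FVF- arrays it was at 5.85 and 6.07 at E12.5, 6.03 and 6.09 at E13.5, 6.44, 6.23 and 8.33 at E14.5, and 7.67, 8.78 and 8.85 at E15.5. Within a day the sorts did not overlap, although the highest FVF- arrays of E15.5 reached the lowest FVF+ array of E12.5. The mean sort difference was 4.29 ± 0.25 (19.6-fold, adjusted p = 2.235e-11 in limma), and the daily difference was widest at E14.5, at 5.27 ± 0.45. Between E15.5 and E12.5 the rise was 2.47 ± 0.45 in FVF+ cells (adjusted p = 0.0003524 in limma) and 2.47 ± 0.50 in FVF- cells (adjusted p = 0.001941 in limma). The difference of these changes was -0.01 ± 0.68 (adjusted p = 0.9951 in limma), an estimate whose error leaves room for a sizeable difference either way. In FVF+ cells 8 of the 10 acinar genes also rose, and the mean of that list was 13.19 to 13.27 in FVF+ arrays of E15.5, against 10.68 to 10.78 at E12.5.

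Serpini1 encodes neuroserpin, which inhibits tissue plasminogen activator and is known from neurons and endocrine cells. It averaged 8.12 ± 0.55, 8.04 ± 0.36, 9.22 ± 0.21 and 8.40 ± 0.28 in FVF+ cells from E12.5 to E15.5 (SD, n = 3, 2, 3 and 3). In FVF- cells it averaged 6.82 ± 0.06, 6.63 ± 0.30, 6.68 ± 0.13 and 6.61 ± 0.23 (SD, n = 2, 2, 3 and 3). Every FVF+ array lay above every FVF- array, and the mean difference was 1.76 ± 0.12 (adjusted p = 2.814e-10 in limma). The widest daily difference was that of E14.5, 2.55 ± 0.22. Between E15.5 and E12.5 Serpini1 was not called in either sort, with differences of 0.28 ± 0.22 in FVF+ and -0.21 ± 0.25 in FVF- cells. Plat, the gene of its target protease, was lower in FVF+ cells by -3.43 ± 0.12 (adjusted p = 2.225e-14 in limma).

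Serpinf2 and Serpina10, whose proteins act in fibrinolysis and clotting, were higher in FVF+ cells. Serpinf2 encodes alpha-2 antiplasmin, the inhibitor of plasmin. It was at 11.88, 11.03 and 11.12 in FVF+ arrays of E12.5, 11.27 and 10.98 at E13.5, 11.55, 11.89 and 11.23 at E14.5, and 11.93, 12.09 and 11.98 at E15.5. In FVF- arrays it was at 8.51 and 8.36 at E12.5, 7.97 and 8.20 at E13.5, 8.7, 8.22 and 8.67 at E14.5, and 8.51, 9.07 and 9.43 at E15.5. The sorts stayed apart by nearly the same distance, 2.91, 3.04, 3.03 and 3.00 from E12.5 to E15.5, with a mean of 2.99 ± 0.13 (7.96-fold, adjusted p = 2.945e-13 in limma). In FVF+ cells Serpinf2 was higher at E15.5 than at E12.5 by 0.66 ± 0.23 (adjusted p = 0.02711 in limma). That call was lost without FVF+ E12.5 replicate 2 or 3 or FVF+ E15.5 replicate 2 or 3, with differences of 0.50, 0.55, 0.61 and 0.67.

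Serpina10 encodes the protein Z-dependent inhibitor of clotting factor Xa. It was at 10.87, 10.63 and 10.80 in FVF+ arrays of E12.5, 10.62 and 10.16 at E13.5, 9.87, 10.11 and 10.01 at E14.5, and 9.90, 9.79 and 9.72 at E15.5. In FVF- arrays it was at 7.34 and 7.45 at E12.5, 7.09 and 7.10 at E13.5, 7.57, 6.80 and 8.18 at E14.5, and 7.44, 7.37 and 7.74 at E15.5. All FVF+ arrays lay above all FVF- arrays, and the mean difference was 2.86 ± 0.12 (7.25-fold, adjusted p = 3.334e-13 in limma). In FVF+ cells Serpina10 fell by 0.96 on the log2 scale between E15.5 and E12.5 (SE 0.22, adjusted p = 0.002242 in limma), and every FVF+ array of E15.5 was below every one of E12.5. The difference of the changes between the sorts, -1.09 ± 0.33, was called (adjusted p = 0.03024 in limma), but not after quantile normalization (-0.91, adjusted p = 0.05736) or with the replicate block (-1.07). The call was also lost without FVF- E12.5 replicate 1 or 2, FVF+ E12.5 replicate 1 or 3, FVF- E15.5 replicate 3 or FVF+ E15.5 replicate 3, with values of -1.14 to -0.97.

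**Figure D2:**
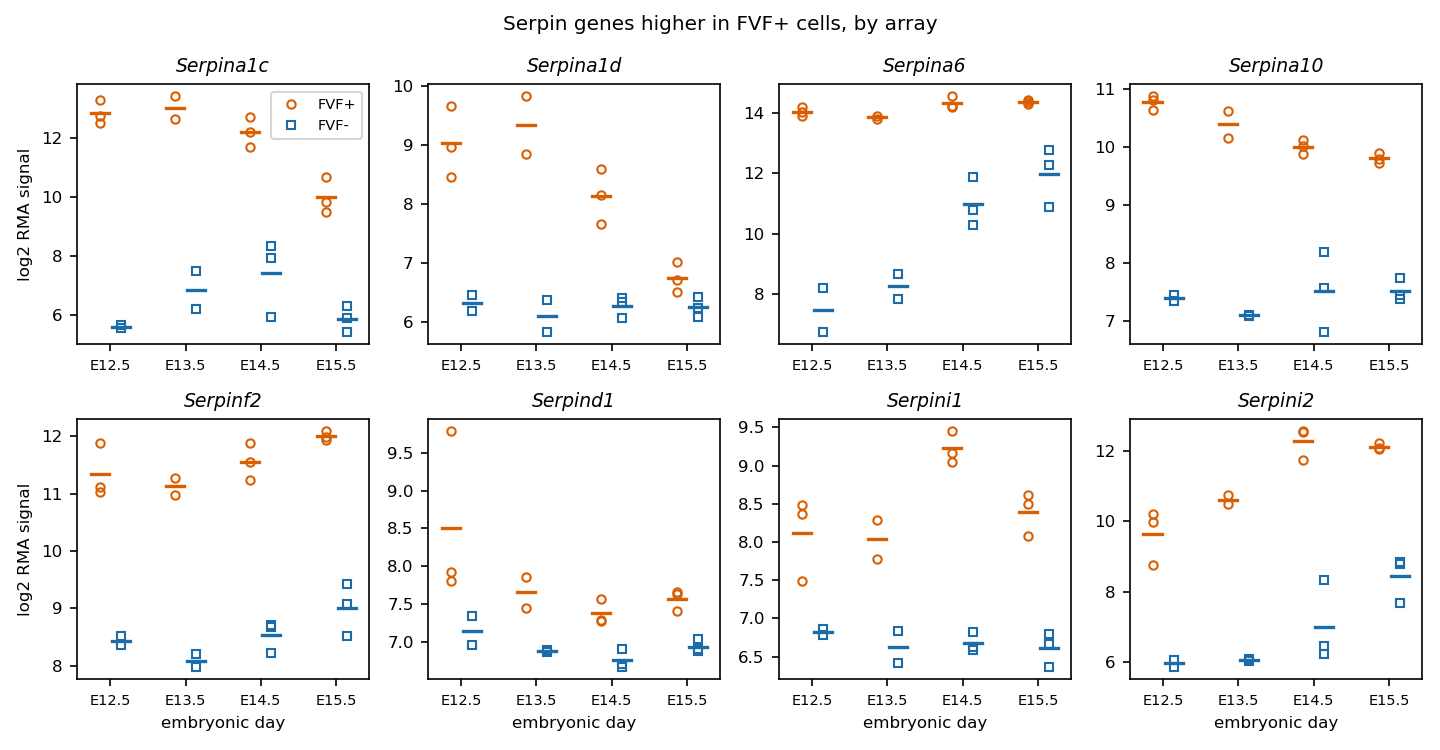
Log2 expression in each array, as points, of 8 serpins that were higher in FVF+ cells (Serpina1c, Serpina1d, Serpina6, Serpina10, Serpinf2, Serpind1, Serpini1 and Serpini2), by embryonic day, with FVF+ left of FVF- on each day and a bar at the group mean. Serpina1c and Serpina1d drop in FVF+ cells at E15.5, Serpina6 climbs in FVF- cells below FVF+ values of 13.80 to 14.54, and Serpini2 climbs in both sorts.

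Serpind1, which encodes the thrombin inhibitor heparin cofactor II, and Serpinc1, which encodes antithrombin, are given because of their role and were chosen after their values were seen. Serpind1 was at 9.79, 7.80 and 7.92 in FVF+ arrays of E12.5 and at 7.28 to 7.86 in the later FVF+ arrays, against 6.66 to 7.34 in FVF- arrays. The value of 9.79 belongs to FVF+ E12.5 replicate 1, the array with the higher red blood cell and mesenchymal markers, whose Fgb value was 9.35, against 7.88 and 8.16 in the other two. With all arrays Serpind1 was higher in FVF+ in the mean by 0.85 ± 0.18 (adjusted p = 0.0004983 in limma), and was called on 1 day, E12.5, by 1.36 ± 0.37. Without that array the mean difference was 0.69 ± 0.07 (adjusted p = 1.441e-07 in limma), and the daily differences were 0.72, 0.78, 0.63 and 0.63, each called. The fall in FVF+ cells between E15.5 and E12.5 was -0.94 ± 0.33 (adjusted p = 0.0274 in limma) with that array, and without it the difference was -0.29 ± 0.14 and not called (adjusted p = 0.1006). Serpinc1 was at 7.11 to 7.50 in FVF+ arrays, against 7.0 to 7.24 in FVF- arrays, a mean difference of 0.15 ± 0.04 (adjusted p = 0.002911 in limma).

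Serpinh1, Serping1 and Serpinb9 were lower in FVF+ cells. Serpinh1 encodes HSP47, the chaperone of collagen. It averaged 11.08 ± 0.14, 11.12 ± 0.04, 10.997 ± 0.09 and 10.89 ± 0.11 in FVF+ cells from E12.5 to E15.5 (SD, n = 3, 2, 3 and 3), against 12.06 ± 0.08, 12.13 ± 0.18, 12.40 ± 0.05 and 12.48 ± 0.09 in FVF- cells (n = 2, 2, 3 and 3). No FVF+ array reached an FVF- array. The mean difference was -1.24 ± 0.05 (adjusted p = 1.864e-13 in limma), and it was -0.99 at E12.5 and -1.58 at E15.5. FVF- cells rose by 0.41 ± 0.10 between E15.5 and E12.5 (adjusted p = 0.008491 in limma), FVF+ cells differed by -0.18 ± 0.09 (adjusted p = 0.1121), and the changes differed by -0.60 ± 0.14 (adjusted p = 0.006801). The rise in FVF- cells was 0.36 and not called without FVF- E12.5 replicate 2.

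The collagen genes differed between the sorts by more than Serpinh1 did. Col1a2, Col1a1 and Col3a1, which encode chains that Serpinh1 helps to fold, were lower in FVF+ cells by -3.43 ± 0.15, -3.36 ± 0.16 and -3.17 ± 0.12. The mesenchymal list had a mean of 8.54 to 9.97 in FVF+ arrays, against 12.07 to 13.07 in FVF- arrays. Its part in the FVF+ values of Serpinh1 was not tested.

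Serping1 encodes the C1 inhibitor, which restrains complement and the kallikrein-kinin cascade. It averaged 10.17 ± 0.15, 10.26 ± 0.35, 10.56 ± 0.31 and 9.96 ± 0.10 in FVF+ cells from E12.5 to E15.5, against 11.73 ± 0.05, 11.88 ± 0.06, 12.13 ± 0.11 and 11.95 ± 0.07 in FVF- cells (SD, with the same numbers of arrays). The sorts did not overlap, and the mean difference was -1.69 ± 0.08 (adjusted p = 6.895e-13 in limma). Serping1 was not called between E15.5 and E12.5 in FVF+ cells (-0.20 ± 0.14) or FVF- cells (0.22 ± 0.16). Its target proteases C1s1 and C1ra were lower in FVF+ cells in the mean of the 4 days, by -0.98 ± 0.11 and -0.36 ± 0.08. At E12.5 and E13.5 neither was called, with differences at E13.5 of -0.51 ± 0.24 and -0.07 ± 0.18. C1ra was not called at E15.5 (-0.30 ± 0.15). C1s1 differed by -1.48 ± 0.20 at E14.5 and -1.79 ± 0.20 at E15.5. Between E15.5 and E12.5 C1s1 rose by 1.765 ± 0.22 in FVF- cells and was not called in FVF+ cells (0.11 ± 0.20).

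Serpinb9 encodes the inhibitor of granzyme B and is known from cytotoxic lymphocytes and antigen-presenting cells. Its averages were below 8.74, the median of all deposited values, in both sorts. They were 6.503 ± 0.46, 6.63 ± 0.02, 6.52 ± 0.07 and 6.23 ± 0.13 in FVF+ cells from E12.5 to E15.5 and 7.58 ± 0.37, 7.89 ± 0.13, 7.68 ± 0.25 and 7.59 ± 0.23 in FVF- cells (SD). No FVF+ array reached an FVF- array, and the mean difference was -1.21 ± 0.10 (adjusted p = 6.403e-09 in limma). Between E15.5 and E12.5 it was not called in FVF+ cells (-0.27 ± 0.19) or FVF- cells (0.01 ± 0.21). The macrophage list had a mean of 7.34 to 8.38 in FVF+ arrays, against 9.81 to 10.998 in FVF- arrays, and its part in the Serpinb9 values was not tested.

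Serpinf1, which encodes pigment epithelium-derived factor, a serpin without inhibitory activity that is known for restraining the growth of blood vessels, changed sides between the sorts. It averaged 11.46 ± 0.13, 11.40 ± 0.13, 10.61 ± 0.10 and 10.03 ± 0.20 in FVF+ cells from E12.5 to E15.5. In FVF- cells it averaged 10.70 ± 0.13, 10.89 ± 0.25, 11.26 ± 0.11 and 11.19 ± 0.08 (SD). FVF+ cells were thus higher at the first 2 days, by 0.76 ± 0.13 (adjusted p = 0.0001221 in limma) and 0.51 ± 0.14 (adjusted p = 0.009708), and lower at the last 2, by -0.65 ± 0.12 (adjusted p = 0.0001434) and -1.16 ± 0.12 (adjusted p = 1.443e-07). Within each day the arrays of the sorts did not overlap. Serpinf1 was the 1 member called in opposite directions on different days, as 2.02% of all genes were. It fell by 1.43 on the log2 scale in FVF+ cells (SE 0.12, adjusted p = 8.215e-08 in limma) and rose by 0.49 ± 0.13 in FVF- cells (adjusted p = 0.01113). The changes differed by -1.93 ± 0.17 (adjusted p = 1.989e-06 in limma). The mean over the 4 days, -0.13 ± 0.06, was not called (adjusted p = 0.08178). The rise in FVF- cells was 0.40 and not called without FVF- E12.5 replicate 2.

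Serpinb6b, an intracellular serpin of clade B, fell in FVF+ cells and was not called in FVF- cells. It averaged 9.26 ± 0.04, 8.97 ± 0.20, 8.47 ± 0.30 and 7.92 ± 0.13 in FVF+ cells from E12.5 to E15.5, against 9.08 ± 0.17, 8.94 ± 0.08, 8.81 ± 0.10 and 9.17 ± 0.19 in FVF- cells (SD). The difference between E15.5 and E12.5 was -1.34 ± 0.13 in FVF+ cells (adjusted p = 8.078e-07 in limma) and 0.09 ± 0.15 in FVF- cells (adjusted p = 0.7345), and the changes differed by -1.44 ± 0.20 (adjusted p = 0.0001105). The sorts did not differ beyond the threshold at E12.5 or E13.5, and at E15.5 FVF+ cells were lower by -1.25 ± 0.13 (adjusted p = 3.284e-07). In the mean of the 4 days Serpinb6b was also called lower in FVF+ cells, by less than 2-fold. Its paralog Serpinb6a, named after its values were seen, rose in FVF+ cells by 0.71 ± 0.10 (adjusted p = 4.752e-05), and the difference between the changes of Serpinb6a in the sorts was 0.44 ± 0.16 and not called (adjusted p = 0.05574).

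Serpinb1a encodes the leukocyte elastase inhibitor, an intracellular serpin that inhibits neutrophil elastase and cathepsin G. It rose steeply in both sorts. The averages were 8.41 ± 0.42, 8.69 ± 0.01, 10.15 ± 0.13 and 10.99 ± 0.27 in FVF+ cells from E12.5 to E15.5 and 7.13 ± 0.03, 8.12 ± 0.87, 9.37 ± 0.15 and 9.91 ± 0.27 in FVF- cells (SD). Between E15.5 and E12.5 the rise was 2.58 ± 0.24 in FVF+ cells (5.98-fold, adjusted p = 4.816e-07 in limma) and 2.78 ± 0.27 in FVF- cells (6.87-fold, adjusted p = 2.397e-06), and the changes differed by -0.20 ± 0.37 (adjusted p = 0.7348). FVF+ cells were higher in the mean by 0.93 ± 0.13 (adjusted p = 7.042e-06), and on each day but E13.5, where the FVF- arrays were at 8.74 and 7.51. The macrophage list in FVF- cells had a mean of 10.58 to 10.998 at E15.5, against 9.81 to 9.84 at E12.5, with 4 of 8 genes higher. The acinar list in FVF- cells, given above with Serpina6, had 8 of 10 genes higher at E15.5. The part of macrophage or acinar RNA in the FVF- rise of Serpinb1a was not tested.

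**Figure D3:**
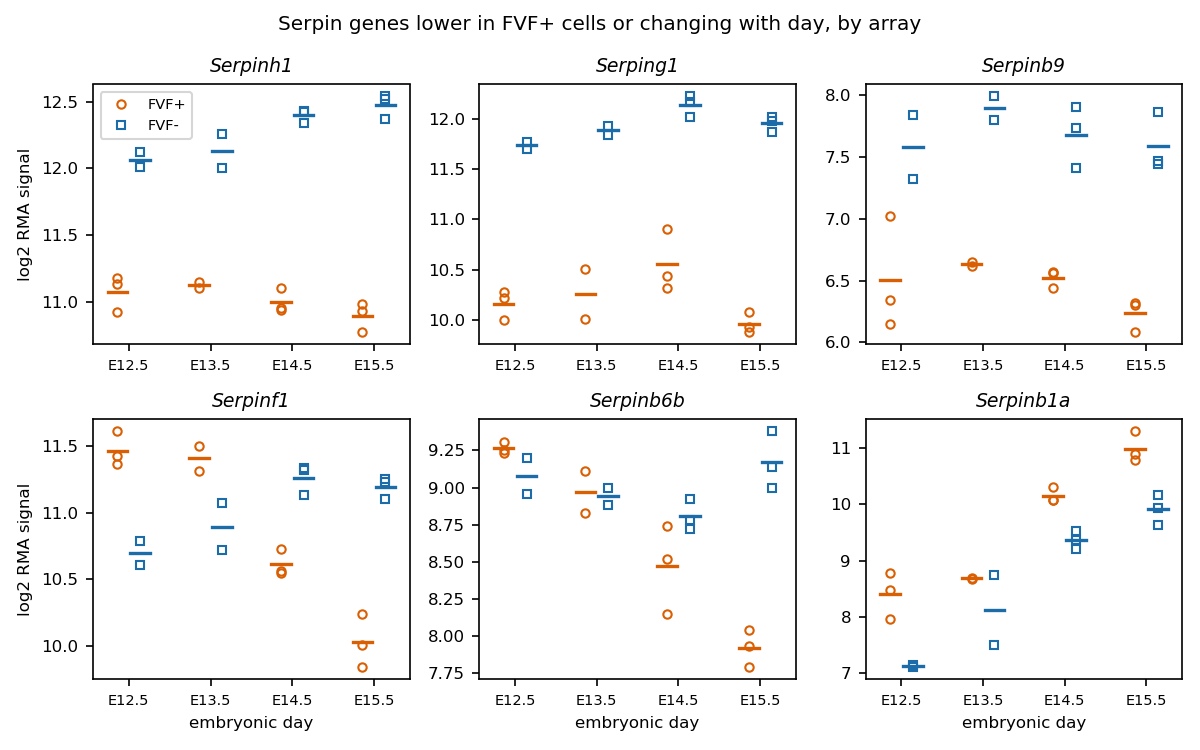
Log2 expression in each array, as points, of Serpinh1, Serping1, Serpinb9, Serpinf1, Serpinb6b and Serpinb1a, by embryonic day, with FVF+ left of FVF- on each day and a bar at the group mean. Serpinh1, Serping1 and Serpinb9 stay apart on all days, and Serpinf1 crosses between E13.5 and E14.5.

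Day by day, 10 members were higher and 4 lower in FVF+ on E12.5, against 17.2% and 18.7% of all genes. On E13.5, 8 were higher and 3 lower, against 15.8% and 15.2% of all genes. On E14.5, 9 were higher and 7 lower, against 23.1% and 21.5%, and on E15.5, 11 were higher and 6 lower, against 24.4% and 19.5%. On all 4 days, 6 members were higher, namely Serpina10, Serpina1c, Serpina6, Serpinf2, Serpini1 and Serpini2, against 9.22% of all genes. Another 3 were lower on all 4 days, namely Serpinb9, Serping1 and Serpinh1, against 10.6% of all genes. Over all 21 arrays, 6 members did not overlap between the sorts with FVF+ above (7.81% of all genes) and 3 with FVF+ below (9.36%).

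**Figure D4:**
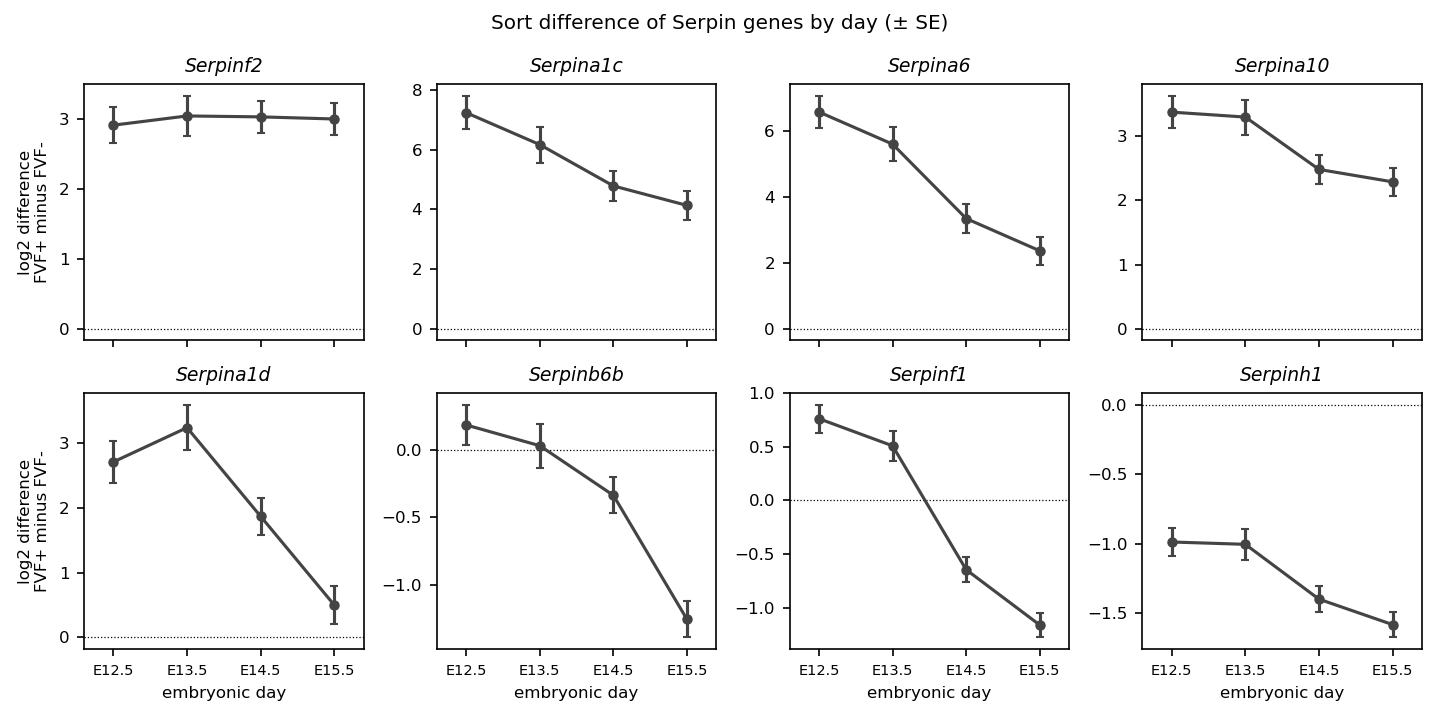
Difference FVF+ minus FVF- on the log2 scale at each of the 4 days, with bars of 1 SE, for 8 serpins, namely Serpinf2 and 7 of those whose change with time differed between the sorts. Serpina1c and Serpina6 come down from 7.25 and 6.56 at E12.5 to 4.14 and 2.36 at E15.5, Serpinf2 stays near 3, and Serpinf1 passes through 0.

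The members' changes with time were counted in each sort. Between E15.5 and E12.5, 12 members rose and 6 fell in FVF+ cells, against 27.6% and 19.3% of all genes, and 6 rose and 0 fell in FVF- cells, against 10.7% and 9.7% of all genes. With at least 2-fold as well, 2 rose and 4 fell in FVF+ cells (2.14% and 3.26% of all genes), and 3 rose and 0 fell in FVF- cells (2.53% and 0.798%). The 6 that fell in FVF+ were Serpina1c, Serpina1d, Serpinf1, Serpinb6b, Serpina10 and Serpind1. Of the 12 that rose there, only Serpinb1a and Serpini2 reached 2-fold, and the smallest rises, of 0.25 to 0.54, were in Serpina3a, Serpina3b, Serpina3n, Serpina4-ps1, Serpina9, Serpina11, Serpinb13 and Serpinc1. After quantile or cyclic loess normalization 5 of the 12 still rose, namely Serpina9, Serpinb1a, Serpinb6a, Serpinf2 and Serpini2, and the 6 that fell still did. Those small rises lie at the low end of the arrays, where 33.6% of all dim genes, those with no group mean above 8.74, also rose in FVF+ cells. The lower quartile of the FVF+ arrays was 7.19 to 7.27 at E15.5, against 6.97 to 7.05 at E12.5, and its part in the rises was not tested.

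The change with time differed between the sorts in 9 members, 1 more positive and 8 more negative in FVF+, against 10.8% and 8.83% of all genes. The 6 with a difference of at least 2-fold, all more negative in FVF+, against 3.95% of all genes, were Serpina6, Serpina1c, Serpina1d, Serpinf1, Serpinb6b and Serpina10. The others, named after their values were seen, were Serpinh1, Serpinb10 and Serpina9. Serpinb10 averaged 5.27 in FVF+ cells at E15.5 and 5.34 at E12.5, and 6.23 in FVF- cells at E15.5 and 5.50 at E12.5. Serpina9 averaged 6.53 in FVF+ cells at E15.5 and 5.997 at E12.5, and 6.10 in FVF- cells at E15.5 and 5.99 at E12.5. Its difference of changes, 0.42, was 0.31 after quantile and 0.29 after cyclic loess normalization and then not called (adjusted p = 0.05422 and 0.07393).

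**Figure D5:**
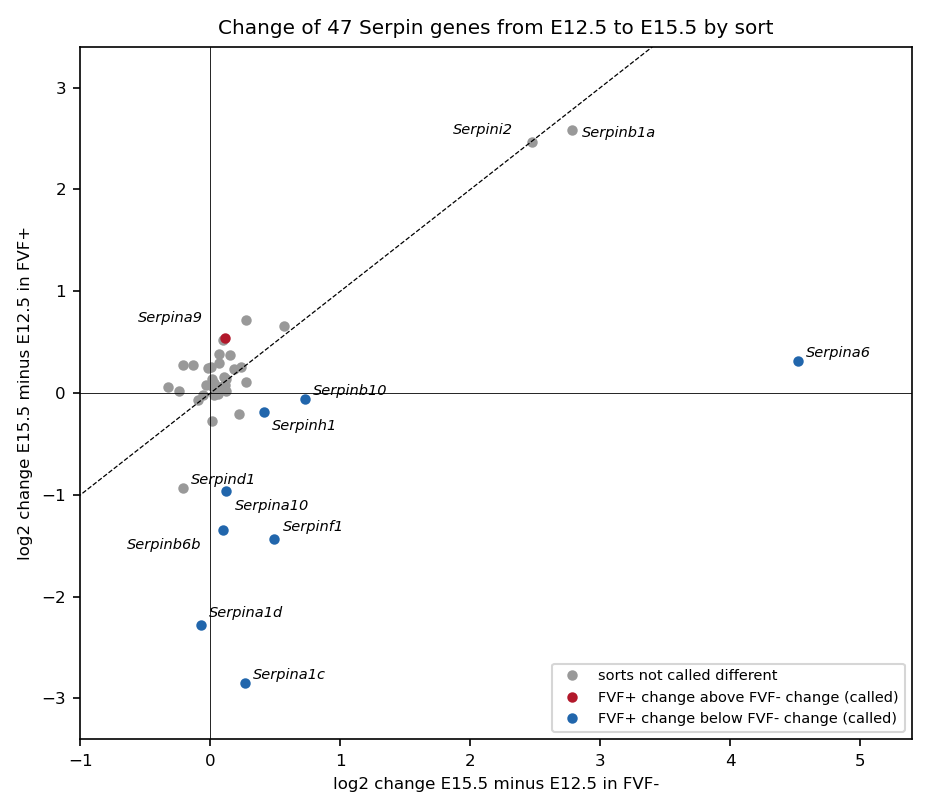
Change between E15.5 and E12.5 on the log2 scale in FVF+ cells (vertical axis) against that in FVF- cells (horizontal axis), 1 point per serpin, with the diagonal where both are equal. Serpinb1a and Serpini2 lie close to the diagonal, with rises in FVF+ and FVF- cells of 2.58 and 2.78 for Serpinb1a and of 2.47 in both for Serpini2, Serpina6 lies far to the right at 4.52 in FVF-, and Serpina1c and Serpina1d lie far below it.

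Most other members sat low and showed little. In 34 of the 47 no group mean was above that level of 8.74, the median of all deposited values, and 19 members were called in none of the 8 comparisons. Those 19 had values between 4.34 and 8.0 in every array. They include Serpina5, the gene of the protein C inhibitor, at 5.77 to 6.5, Serpina7, of thyroxine-binding globulin, at 5.12 to 5.58, Serpina12, of vaspin, at 5.80 to 6.29, Serpinb2, of plasminogen activator inhibitor 2, at 5.93 to 6.30, and Serpinb5, of maspin, at 5.63 to 5.96. An array value this low does not show whether a gene is silent, and a change smaller than the spread was not detectable at this level. The remaining calls in the mean sort difference were small, from 0.14 to 0.21 for Serpinb12, Serpina9 and Serpinb13, and from -0.36 to -0.22 for Serpinb10, Serpinb8 and Serpinb9e.

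Proteases of the kinds serpins inhibit went both ways between the sorts. Of 38 listed, 35 were measured, and 16 were higher and 11 lower in FVF+ cells in the mean, where 30.5% of all genes were higher and 25.2% lower. The median was 0.10, against 0.03 over all genes. The matriptase gene St14 was higher by 3.86 ± 0.15, and the acinar proteases Ctrb1 (3.35 ± 0.21), Cela1 (2.76 ± 0.12) and Prss3 (1.94 ± 0.10) were higher too. Their daily differences were unlike these means. Prss3 was not called at E12.5 or at E13.5 (0.42 ± 0.23 at E13.5). It differed by 3.70 ± 0.19 at E14.5 and 3.71 ± 0.19 at E15.5. Ctrb1 differed by 5.24 ± 0.44 at E12.5 and by 1.05 ± 0.39 at E15.5, and Cela1 by 2.24 ± 0.25 and 3.26 ± 0.23 on those days. Htra1 (-3.46 ± 0.10), Plat, Plau (-1.17 ± 0.09) and C1s1 were lower in the mean. Granzyme A (Gzma, -0.04 ± 0.05) and F11 (0.03 ± 0.04), the gene of clotting factor XI, were not called. Between E15.5 and E12.5, 13 of the 35 rose, 1 fell and 21 were not called in FVF+ cells, where 27.6% of all genes rose and 19.3% fell. The rises were led by Cela3b (4.90 ± 0.29), Prss3 (4.49 ± 0.19) and Cela2a (4.45 ± 0.25), with Plg, the plasminogen gene, at -0.41 ± 0.10. In FVF- cells 12 rose, 0 fell and 23 were not called, where 10.7% of all genes rose and 9.7% fell, and Ctrb1 had the largest rise of the list at 5.42 ± 0.44.

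Genes of cofactors, receptors and clients of serpins also differed in both directions. Of 20 measured of 21 listed, 7 were higher and 11 lower in FVF+ cells, where 30.5% of all genes were higher and 25.2% lower, and the median was -0.31, against 0.03 over all genes. Vtn, the gene of the adhesive plasma protein vitronectin, was higher by 4.44 ± 0.12, Agt, the angiotensinogen gene and itself a serpin by descent, by 1.93 ± 0.10, Sdc4 by 1.12 ± 0.05 and F3 by 0.95 ± 0.06. The clearance receptor gene Lrp1 was lower by -2.95 ± 0.09, beside the collagens given above. P4hb (0.00 ± 0.05) and the glucocorticoid receptor gene Nr3c1 (0.22 ± 0.09) were not called in the mean of the 4 days. On single days P4hb was called higher at E15.5 (0.36 ± 0.09) and Nr3c1 at E14.5 (0.62 ± 0.17). With time, 9 rose and 4 fell in FVF+ cells (27.6% and 19.3% of all genes), and 13 rose and 0 fell in FVF- cells (10.7% and 9.7%).

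Protease inhibitors of other families divided evenly. All 28 listed were measured, and 9 were higher and 9 lower in FVF+ cells (30.5% and 25.2% of all genes), with a median of -0.05. Those higher were led by Ambp (4.92 ± 0.28), Spint1 (4.0 ± 0.14), Spink1, the acinar trypsin inhibitor (3.56 ± 0.22), and Spint2 (2.99 ± 0.11). Those lower were led by the metalloproteinase inhibitors Timp3 (-3.07 ± 0.09), Reck (-2.24 ± 0.07) and Timp2 (-2.09 ± 0.05) and by Itih5 (-2.12 ± 0.13). Itih5 was not called at E12.5 and differed by -1.26 ± 0.29 at E13.5 and -3.84 ± 0.23 at E15.5. In FVF- cells Itih5 rose by 3.31 ± 0.26 between E15.5 and E12.5. Cst3 (-0.07 ± 0.08) and Slpi (-0.08 ± 0.05) were not called. The list also holds genes whose products are not themselves protease inhibitors, among them the Itih genes and Hpx, the gene of the haem carrier hemopexin. Hpx counts among the 8 rises in FVF+ cells given next (0.32 ± 0.11). In FVF+ cells 8 rose and 9 fell between E15.5 and E12.5 (27.6% and 19.3% of all genes), with Spink1 at 2.47 ± 0.40 and Reck at -1.77 ± 0.13, and in FVF- cells 7 rose and 0 fell (10.7% and 9.7%). The change with time differed between the sorts in 13 target proteases (7 more positive and 6 more negative in FVF+), 10 partners (3 and 7) and 13 other inhibitors (2 and 11), where 10.8% of all genes were more positive and 8.83% more negative.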

How the data were processed

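Expression was measured on 21 Affymetrix arrays. RNA was purified on RNeasy Mini columns and prepared with Ambion and Affymetrix whole-transcript kits, per the labels' protocols. The authors used RMA in affy 1.44.0, per the submitters' processing notes, and deposited log2 values between 4.0 and 15.31, with array medians of 8.68 to 8.82. The definition of the probe sets is not stated in these sources. Precision is set by how many arrays each group has.

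Of 23305 probe sets, 20728 had exactly 1 gene symbol in the platform annotation, 1174 several and 1403 none. Symbols were checked by Entrez identifier against the reference gene table of GRCm38.p6: 0 were updated and 43 identifiers were not found. The probe set with the highest mean was kept per gene, which left 19296 genes.

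All arrays entered a limma 3.58.1 model (R 4.3.3) with 8 group means, 13 residual degrees of freedom and empirical Bayes moderation, tested two-sided with Benjamini-Hochberg adjustment within each of 8 comparisons: the sorts on each day and averaged over the 4 days, E15.5 against E12.5 within each sort, and the difference of those changes. The steps were tested on simulated data. Same-group arrays correlated at 0.985 to 0.997 and FVF+ with FVF- arrays at 0.889 to 0.941.

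The members, the gene lists and the naming rule were chosen with earlier results of these data known. Values in every array are given for Serpina1c, Serpina6, Serpini2 and members called with a mean sort difference of at least 2 log2 units. Group means are given for other members called with a difference of at least 1 in the mean sort difference, either change with time or the difference of changes. Lists show up to 4 called genes per direction and up to 2 not called. Alternatives were testing all probe sets, averaging those of a gene, dropping dim genes, median centring, quantile and cyclic loess normalization, robust moderation with an intensity trend, array weights, fits on the arrays compared, a term for letter-coded arrays, a replicate block, a 2-fold threshold and leaving out each array. Leaving out FVF+ E12.5 replicate 1 and FVF- E14.5 replicate 3 together was chosen after seeing the data. Deviations of arrays with the same replicate number on a day correlated above 0.1 in 3 of 10 pairs. The pairs of E13.5 share 1 value by construction, because each group there has 2 arrays. At E12.5, E14.5 and E15.5, same-numbered FVF+ and FVF- arrays have consecutive code numbers. With so few arrays this check cannot decide whether the numbers pair the samples. They were not taken to do so in the main model. Promoter windows came from RefSeq (GRCm38.p6) and covered 250 bases before the start for 40 members.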

Additional observations from a re-analysis of the deposited data

Results flagged for a closer look

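The change between E15.5 and E12.5 differed between FVF+ and FVF- cells by its own test in 9 serpins, each given as the change in FVF+ minus that in FVF- on the log2 scale with its adjusted p from limma. Serpina6 had -4.20 (adjusted p = 0.0002665), Serpina1c -3.11 (adjusted p = 0.007919), Serpina1d -2.21 (adjusted p = 0.001989) and Serpinf1 -1.93 (adjusted p = 1.989e-06). Serpinb6b had -1.44 (adjusted p = 0.0001105), Serpina10 -1.09 (adjusted p = 0.03024), Serpinb10 -0.79 (adjusted p = 0.003748) and Serpinh1 -0.60 (adjusted p = 0.006801). The Serpina10 call was lost after quantile normalization, with the replicate block and when any 1 of 6 arrays was left out, and the Serpina9 call after quantile and cyclic loess normalization. Serpina9 was the 1 member with a more positive change in FVF+, 0.42 (adjusted p = 0.01814). The routes differed: Serpina6, Serpinb10 and Serpinh1 were called in FVF- cells and not in FVF+, Serpina1c, Serpina1d, Serpinb6b, Serpina10 and Serpina9 in FVF+ and not in FVF-, and Serpinf1 in both, in opposite directions. No group holds more than 3 arrays, so no single array was tested as an outlier.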

How the results depend on the processing

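The counts of called serpins that moved by more than 1.5 times were these. The mean sort difference, with 20 members called, gave 11 with a filter on dim genes, which kept 13 members and 11485 genes, and 10 with a 2-fold threshold as well, which also left 10 of the 16 at E14.5. The change in FVF+ cells, with 18, gave 9 with the dim filter, 11 after quantile and 11 after cyclic loess normalization, and 6 with the 2-fold threshold. The change in FVF- cells, with 6, gave 10 with array weights and 3 with the 2-fold threshold. Leaving out each array in turn gave 19 to 21 members for the mean sort difference, 12 to 15 at E12.5, 10 to 12 at E13.5, 13 to 16 at E14.5, 17 to 19 at E15.5, 13 to 19 for the change in FVF+ cells, 4 to 8 for that in FVF- cells and 7 to 11 for the difference of the changes. The lowest FVF+ count, 13, was without FVF+ E15.5 replicate 3, and the lowest FVF- count, 4, was without FVF- E12.5 replicate 2. Leaving out FVF+ E12.5 replicate 1 and FVF- E14.5 replicate 3 together, chosen after seeing the data, gave 19, 15, 12, 15, 18, 16, 6 and 10 in the same order. With the replicate block the counts were 20, 13, 11, 15, 17, 18, 6 and 8. Same-numbered arrays correlated between -0.37 and 0.49 in their deviations, and 4 of 6 FVF+ arrays correlated best with the FVF- array of their own number. The fit on only the arrays compared is the fit reported for the mean sort difference, which uses all arrays.

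Over the 52 differences of the 13 serpins named by rule, 1675 of 1699 alternative values kept their direction and side of the threshold, 14 lost the call, 10 gained one and 0 reversed. Losses were confined to Serpina10, Serpinf1, Serpinf2 and Serpinh1, and the difference of the changes of Serpina10 was lost after quantile normalization, with the replicate block (-1.07) and when any 1 of 6 arrays was left out. The mean sort difference of Serpinf1 was called after quantile (-0.17) and cyclic loess (-0.22) normalization and with array weights (-0.15). Where a cause is not plain from the alternative itself, it was not tested. The low signal of 34 members limits what can be seen in them.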
